A study of Mus musculus with 12 samples.

Results

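Kidneys of C57BL/6 mice with chronic kidney disease (CKD) were compared with kidneys of control mice of that strain, 4 libraries against 4, chosen as the samples titled CKD 1 to 4 and Control 1 to 4. These are 8 of the 12 libraries of a series that also holds CKD mice under time restricted feeding, whose libraries enter no value here except where a fit of all 3 groups is named. Messenger RNA was measured by QuantSeq, which reads the 3′ end of each polyadenylated transcript, so that a transcript gives about as many reads whether it is long or short. No allele, agent, age, sex or hour of sampling is given in the labels for either group, nor how the disease was made, nor whether each library is a separate animal. The p-values therefore measure the spread between libraries, which may be in part technical.

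Chronic kidney disease is the lasting loss of working nephrons, the filtering and reabsorbing units of the kidney. The proximal tubule, which reclaims most of the filtrate, runs on mitochondrial oxidation of fatty acids and amino acids and is easily damaged. Damaged tubules switch on injury and inflammatory genes, leukocytes gather between them, and fibroblasts lay down collagen, the fibrosis common to most forms of the disease.

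The Control libraries held 10989556 to 12810662 reads and the CKD libraries 14512088 to 16857594 (exact permutation test, two-sided, p = 0.0286, the smallest that 4 against 4 allows, and 0.0457 adjusted over 8 library measures). Levels are given as scaled reads, which sum to 1076773 to 1180101 in a Control library and 941189 to 978419 in a CKD library, and a gene with no read may still stand at up to the worth of 3 reads, 0.168 to 0.306, for counting error only. Changes are CKD minus Control on the deposited log2(scaled reads + 1) scale, ± SE from limma with n = 4 per group, and this scale understates the change of genes near 0. Genes that define the kidney were high in every library, among them the proximal tubule gene Kap (22011 to 60808 scaled reads), Umod of the thick ascending limb (790.3 to 1582) and Aqp2 of the collecting duct (118 to 399.6).

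Markers of other tissues differed between the kidneys, and unevenly. Adipoq, the fat cell hormone adiponectin, stood at 0, 0.461, 0 and 0.0913 scaled reads in Control 1 to 4 and at 1.88, 38.1, 1.04 and 58.7 in CKD 1 to 4. Ucp1, the uncoupling protein of brown fat, stood at 0.778, 26.1, 0.348 and 51.4 in CKD 1 to 4, against at most 0.369 in a Control library. Both were high in CKD 2 and CKD 4 and at most 1.88 in the other 6 libraries. The sum of the 17 adipose markers did not pass, at 1268 to 1754 scaled reads in Control and at 919, 1368, 884 and 1948 in CKD 1 to 4 (exact permutation test, two-sided, p = 0.4). Within that sum Pck1, which the proximal tubule makes too, stood at 1040 to 1413 in Control and 696 to 777 in CKD. Of 14 tested adipose markers 9 rose and 1 fell, and without CKD 2 and CKD 4 the counts were 3 and 1. Markers of urothelium, the lining of the renal pelvis, were in sum higher in all 4 CKD libraries than in any Control library: the 16 summed to 11.5 to 30.6 scaled reads in Control and to 52.99, 243, 66.5 and 198 in CKD 1 to 4. All 11 tested members rose, 8 of them also without CKD 2 and CKD 4. Red cell markers went the other way, at a summed 10192 ± 5447 scaled reads in Control and 3416 ± 851 in CKD (SD, n = 4), with Control 2 at 18314. Besides the fit without CKD 2 and CKD 4, a fit with the mean log2 level of the adipose markers as a covariate called 4379 genes. Of 183 called genes named here, that fit kept the call of 170 and lost that of 13, Aqp2, Bmp7, Col4a3, Kap, Lgr4, Nrf1, Pecam1, Pfkfb3, Scnn1g, Slc12a1, Slc36a2, Smo and Ucp1, at limma adjusted p from 0.0513 (Smo) to 0.416 (Ucp1). No fit was made with the urothelium or red cell markers, and their part in the results below was not tested.

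**Figure D1:**
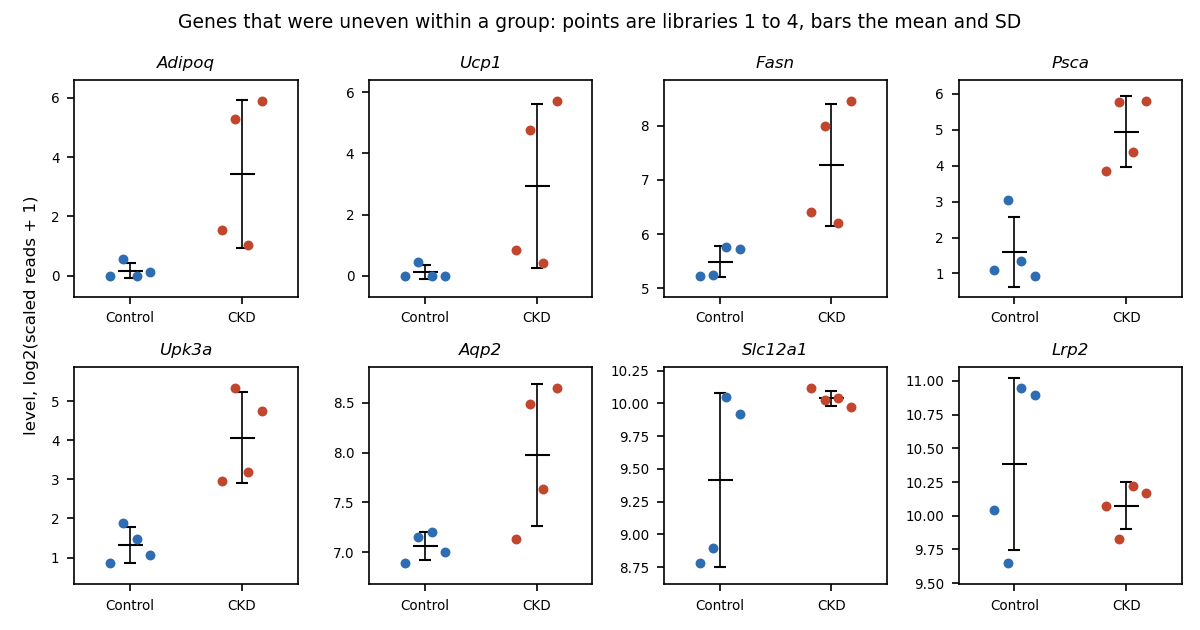
Level of 8 genes in each library on the log2(scaled reads + 1) scale, with Control in blue and CKD in red, points in the order of libraries 1 to 4, and the mean and SD as a bar. The fat genes Adipoq, Ucp1 and Fasn and the collecting duct and urothelium genes Aqp2, Psca and Upk3a are highest in CKD 2 and CKD 4, and Slc12a1 and Lrp2 are lower in Control 1 and 2 than in Control 3 and 4.

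A large share of the kidney's transcripts differed between CKD and Control. Of 13942 tested genes 6078 passed (43.6%; limma adjusted p under 0.05), 3151 higher in CKD (22.6%) and 2927 lower (21.0%), and the libraries of the groups did not overlap for 5503 (39.5%). The rises were larger than the falls: 1185 genes rose by 2-fold or more (8.50%) and 310 fell by as much (2.22%), and 168 rose but 5 fell by 4-fold or more. The balance rests on how libraries are scaled. Bringing all libraries to equal sums moved the median of all genes from 0.02 to 0.22 and gave 4811 higher and 1456 lower, and limma voom on the reads moved it to 0.25 and gave 4690 and 1446. Median centring gave 2558 and 3827, with the median at -0.09. Under the deposited scaling, median centring, quantile normalization and equal sums alike, 2146 genes were called higher (15.4%) and 1401 lower (10%), and for each list below the count called under all 4 scalings is given as the scaling-stable count. Without CKD 2 and CKD 4 the total fell to 4011, of which 3944 were called in the same direction as with all 8 libraries.

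**Figure D2:**
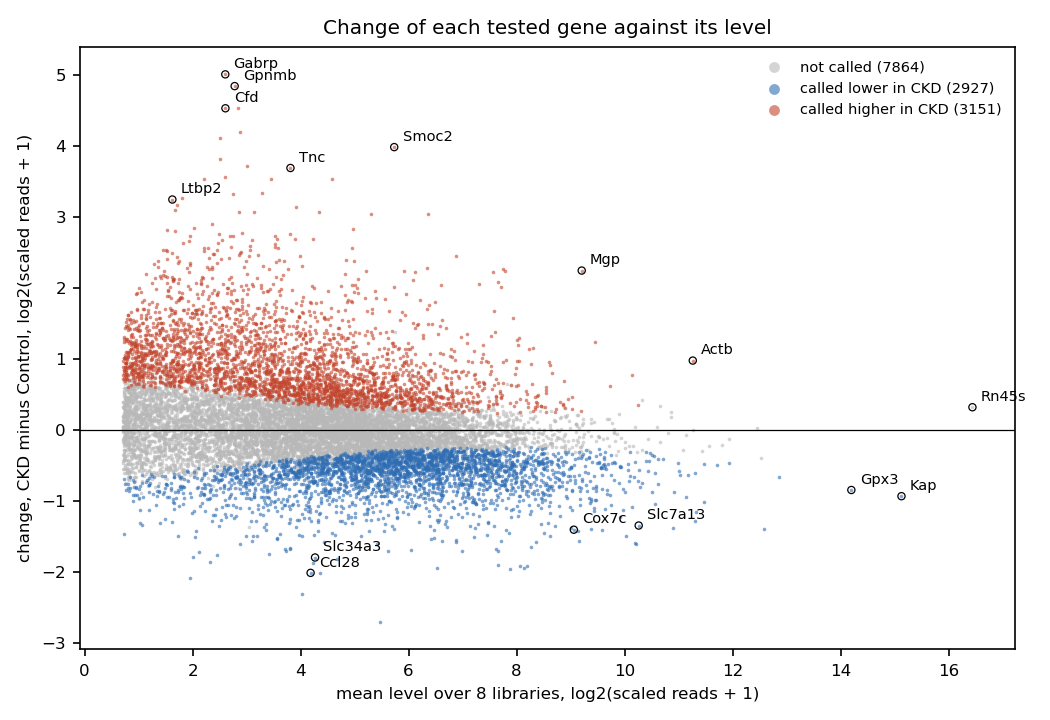
Change of each of the 13942 tested genes, CKD minus Control on the log2(scaled reads + 1) scale, against its mean level over the 8 libraries, with the 3151 genes called higher in red, the 2927 called lower in blue and the rest in grey. The largest changes are rises of genes with low or middle levels, such as Gabrp and Gpnmb, while most genes at the right end, such as Gpx3 and Kap, lie below 0.

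In scaled reads, the largest gain among called genes was that of Actb, cytoplasmic actin, from 1753 ± 164 to 3459 ± 247 (SD, n = 4). Mgp, matrix Gla protein, an inhibitor of calcification, stood at 262, 284, 290.4 and 245 scaled reads in Control and at 1342, 1373, 1311 and 1137 in CKD, so that the groups stood far apart, and rose by 2.25 ± 0.10 (limma adjusted p = 4.3e-10). The next largest gains were those of Apoe, the lipid carrier apolipoprotein E (453 to 1084), B2m, the light chain of MHC class I (864 to 1480), Timp2, a metalloproteinase inhibitor (102 to 482), Serping1, the inhibitor of complement C1 (97.2 to 471), the proteoglycan Dcn (87.3 to 412), the epithelial secreted protein Wfdc2 (104 to 425) and Col1a2, a chain of type I collagen (97.6 to 416). The largest losses were in abundant proximal tubule genes and in the globins of red cells. Kap, the androgen-regulated kidney protein, went from 49923 ± 8755 to 26059 ± 2707 and the secreted glutathione peroxidase Gpx3 from 25271 ± 2761 to 14251 ± 2872, but under quantile normalization, which gives the highest genes the same value in all libraries, both changes were 0.00. Among the 12 largest losses were the globin genes Hba-a1, Hbb-bs and Hbb-b1, near copies within their families. Hba-a1 stood at 3434, 8334, 3067 and 2824 scaled reads in Control and at 1391, 1449, 2112 and 1653 in CKD, and fell by 1.28 ± 0.26 (limma adjusted p = 9.1e-04).

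Only 2 tested genes lay below 3 reads in every Control library and at 5 scaled reads or more in every CKD library, and none did the reverse. Ltbp2, a secreted protein of elastic fibres that binds their microfibrils, had no read in any Control library and 9.34, 8.57, 10.1 and 6.49 scaled reads in CKD 1 to 4, which is at least 31.0-fold higher than the mean worth of 3 reads in a Control library. Gabrp, which encodes a subunit of GABA-A receptors, had 3 reads over all Control libraries and 30.1 to 36.5 scaled reads in CKD.

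Injury genes of the tubule were higher. Of 31 tested members 28 rose and none fell, 27 as the scaling-stable count, with a median change of 1.14. The list was drawn from genes known to mark damaged and poorly repaired tubules. Like the other lists, it was chosen with earlier results of these data known, so its count is a description and not an independent test. Krt19, a keratin of simple epithelia, stood at 1.23, 1.198, 1.28 and 1.19 scaled reads in Control and at 9.92, 15.9, 7.08 and 14.8 in CKD, highest in CKD 2 and CKD 4, where the urothelium markers were too, and rose by 2.48 ± 0.24 (limma adjusted p = 8.7e-07). Wfdc2 stood at 93.5 to 112 in Control and 365 to 502 in CKD, and rose by 2.01 ± 0.11 (limma adjusted p = 2.3e-09). The chaperone clusterin, Clu, was even among the CKD libraries, at 354 to 370.4 scaled reads against 152 to 208 in Control (0.98 ± 0.11, limma adjusted p = 2.8e-06). Osteopontin, Spp1, a secreted phosphoprotein of injured tubules, was at 454 to 496 against 147 to 291 (1.16 ± 0.15, limma adjusted p = 2.2e-05). The early injury receptor Tnfrsf12a did not pass, at 4.17 to 6.08 scaled reads in Control and 3.02 to 6.82 in CKD (limma adjusted p = 0.992).

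Matrix genes rose in every class. The counts were 20 of 27 tested collagen chains with 1 lower (17 scaling-stable higher, median 1.07), 13 of 19 laminins and basement membrane genes with none lower (10 stable, 0.72), 25 of 31 matricellular and elastic fibre genes with 1 lower (22 stable, 1.21), and 11 of 24 proteoglycan and hyaluronan genes with 1 lower (11 stable, 0.27). Tenascin C, Tnc, a matrix glycoprotein of healing tissue, stood at 1.43, 4.05, 3.06 and 3.65 scaled reads in Control and at 47.3, 63.5, 38.0 and 52.9 in CKD, and rose by 3.70 ± 0.22 (limma adjusted p = 7.8e-09). The microfibril protein Mfap5 rose from 1.63 ± 0.886 to 20.7 ± 4.87 scaled reads, beside its partner in elastic fibres, Ltbp2. Of the collagens, the interstitial chain Col1a2 rose by 2.08 ± 0.11 and the multiplexin Col15a1 by 2.04 ± 0.18, and the general basement membrane chain Col4a1 by 1.07 ± 0.12 (limma adjusted p = 1.1e-09, 3.2e-07 and 6.1e-06). Col4a3, which belongs to the glomerular basement membrane, was the 1 chain that fell, by 0.55 ± 0.14 (limma adjusted p = 0.00411), and that call ended under equal sums (0.0759) and without CKD 2 and CKD 4 (0.0666).

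Enzymes that cut, cross-link or guard the matrix followed. Of 47 tested proteases and inhibitors 31 rose and 3 fell (29 and 2 scaling-stable, median 0.83). Inhibitors and proteases rose together: Timp1 by 2.73 ± 0.25 and the gelatinase Mmp2 by 2.52 ± 0.25 (limma adjusted p = 6.4e-07 and 1.2e-06). Serpinf2, which encodes the plasmin inhibitor alpha 2-antiplasmin, fell from 211 ± 13.4 to 114 ± 8.77 scaled reads (-0.88 ± 0.10, limma adjusted p = 3.9e-06). Among collagen processing enzymes 11 of 24 rose and 1 fell (9 and 0 scaling-stable, median 0.35): the cross-linking oxidase Lox rose by 2.78 ± 0.19, the procollagen peptidase Adamts2 by 2.46 ± 0.19 and Loxl1 by 1.57 ± 0.17 (limma adjusted p = 3.6e-08, 1.2e-07 and 3.7e-06).

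**Figure D3:**
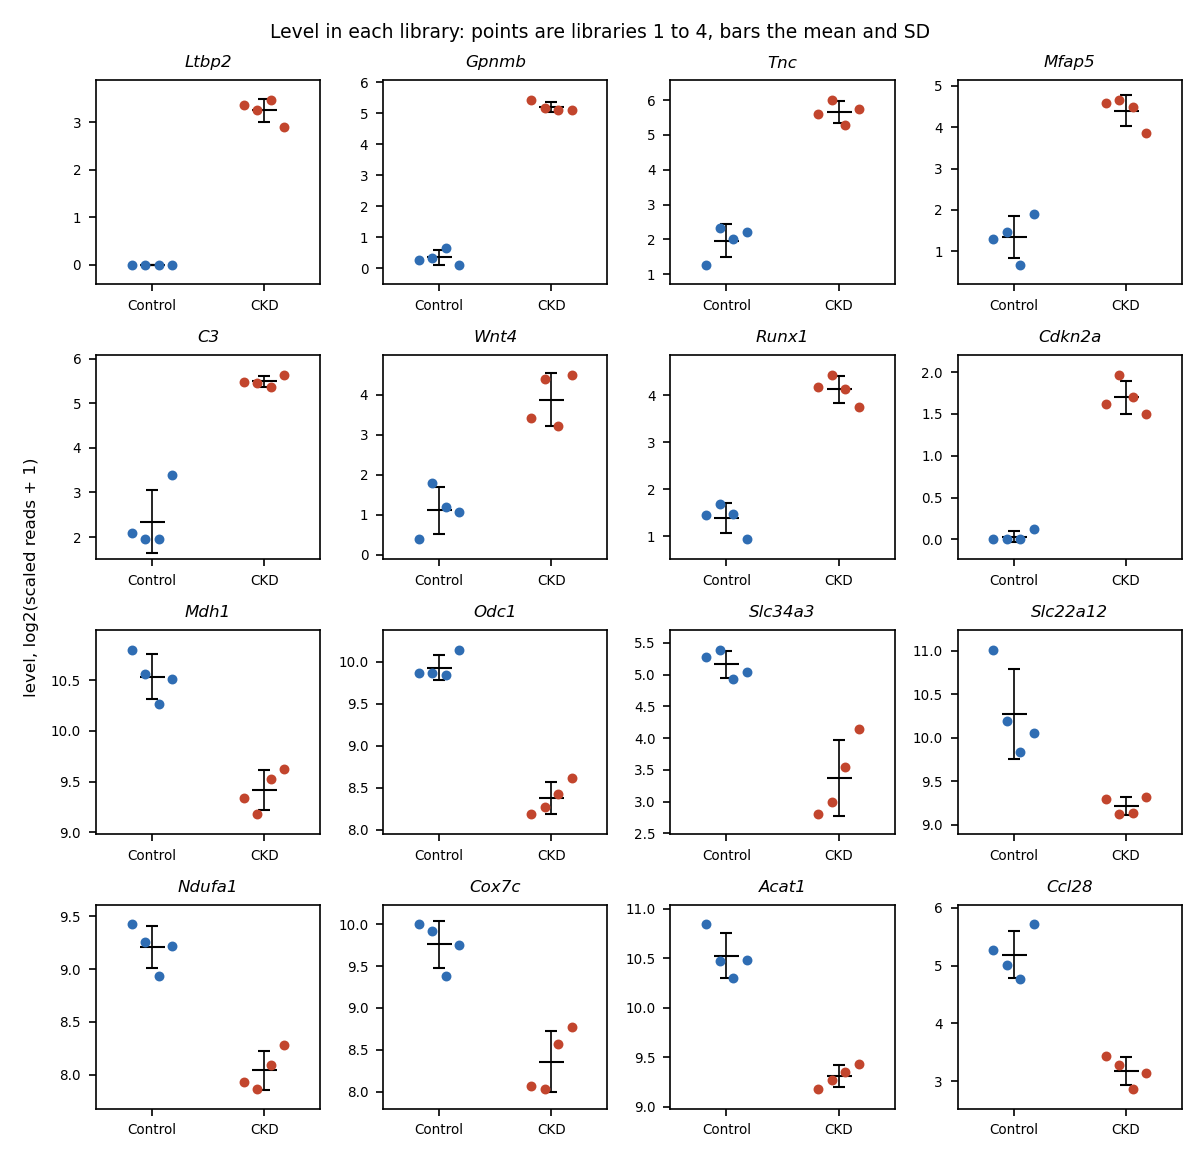
Level of 16 genes in each library on the log2(scaled reads + 1) scale, with Control in blue and CKD in red, points in the order of libraries 1 to 4, and the mean and SD as a bar. No Control point reaches a CKD point in any panel: the upper 8 genes are higher in CKD and the lower 8 are lower.

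Genes of the cells that make matrix, and of the signals that drive them, were higher. Of 26 tested fibroblast, pericyte and smooth muscle genes 16 rose and 3 fell (14 and 1 scaling-stable, median 0.61). Acta2, smooth muscle actin and the usual mark of myofibroblasts, stood at 34.1, 29.5, 27.5 and 18.6 scaled reads in Control and at 127, 168, 104 and 133 in CKD, a rise of 2.25 ± 0.17 (limma adjusted p = 7.4e-08). The fibroblast receptor Pdgfra rose by 1.95 ± 0.15 and the Hedgehog-responsive factor Gli1 of perivascular cells by 2.07 ± 0.25 (limma adjusted p = 1.2e-07 and 1.0e-05). In bulk tissue, more cells of a type and more RNA per cell cannot be told apart, here and for every cell type below.

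Of 36 tested TGF-beta, activin and BMP genes 26 rose and 3 fell (23 and 0 scaling-stable, median 0.68). The ligands Tgfb2 and Tgfb3 rose by 1.52 ± 0.23 and 1.68 ± 0.27 (limma adjusted p = 8.3e-05 and 1.4e-04). The activin subunit Inhbb stood at 0.307 to 2.39 scaled reads in Control and 5.64 to 7.73 in CKD and rose by 1.69 ± 0.27 (limma adjusted p = 1.1e-04). Bmp7, a tubular ligand known to oppose TGF-beta, was 23.4 ± 4.42 in Control and 17.4 ± 1.199 in CKD (-0.39 ± 0.15, limma adjusted p = 0.0419), a call lost under equal sums (0.383) and on leaving out Control 3, Control 4 or any 1 CKD library (0.0533 to 0.149). Of 43 Wnt, Notch and Hedgehog genes 27 rose and 2 fell (22 and 0 scaling-stable, median 0.77). Wnt4, a ligand that forms nephrons in the embryo and that adult collecting ducts also make, stood at 0.307, 2.49, 1.28 and 1.10 scaled reads in Control and at 9.60, 20.01, 8.30 and 21.6 in CKD, highest in CKD 2 and CKD 4 like Aqp2, and rose by 2.77 ± 0.32 (limma adjusted p = 6.3e-06). Rspo3, which strengthens Wnt signals, rose by 1.63 ± 0.23, while the Hedgehog transducer Smo (-0.49 ± 0.13) and the Rspo receptor Lgr4 (-0.48 ± 0.17) passed in the other direction (limma adjusted p = 3.5e-05, 0.00562 and 0.0314) and lost that call under equal sums (0.0995 and 0.265). Lgr4 also lost it without Control 1, 3 or 4 and without CKD 1 or 2 (0.0573 to 0.130). Of 33 PDGF, FGF, EGF, HGF and VEGF family genes 15 rose and 1 fell, but 9 and 0 were scaling-stable, and 9 rose without CKD 2 and CKD 4. Igf1 rose from 17.3 ± 2.82 to 53.3 ± 7.81 scaled reads, Csf1, the macrophage growth factor, from 7.56 ± 2.79 to 21.9 ± 1.90, and the lymphatic growth factor VEGF-D, listed as Figf, from 4.89 ± 1.52 to 15.4 ± 2.53 (limma adjusted p = 8.1e-07, 2.5e-05 and 4.2e-05).

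Transcription factors of the immediate early and related families moved with them: 27 of 40 rose and 1 fell (26 and 0 scaling-stable, median 0.93). Runx1, a factor of blood cells that injured tubules also make, stood at 1.74, 2.21, 1.79 and 0.913 scaled reads in Control and at 17.1, 20.6, 16.6 and 12.4 in CKD, a rise of 2.74 ± 0.21 (limma adjusted p = 1.2e-07). Klf5 rose by 1.96 ± 0.22 and Nr4a2 by 1.71 ± 0.27 (limma adjusted p = 4.0e-06 and 1.1e-04). Fos did not pass (limma adjusted p = 0.208), and Control 2 held 27.1 scaled reads against 0.510 to 3.56 in the other Control libraries and 5.44 to 15.1 in CKD. Without Control 2 its change was 1.90 (limma adjusted p = 6.3e-04). Klf15, a glucocorticoid-responsive factor, fell by 0.51 ± 0.13 (limma adjusted p = 0.00483), but not under equal sums (0.106).

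Leukocyte transcripts were among the largest rises. Of 24 tested macrophage markers 23 rose, all 23 of them also scaling-stable and without CKD 2 and CKD 4, with a median change of 1.90. Gpnmb, a glycoprotein of lipid-laden and lysosome-rich macrophages, stood at 0.204, 0.276, 0.595 and 0.0913 scaled reads in Control and at 42.4, 34.7, 33.2 and 33.8 in CKD, a rise of 4.85 ± 0.19 (limma adjusted p = 4.6e-11). The macrophage receptor Adgre1, known as F4/80, rose from 3.91 ± 1.69 to 27.4 ± 5.29 scaled reads, and the mannose receptor Mrc1 from 4.56 ± 2.04 to 27.4 ± 5.08. Of 20 T and NK cell markers 17 rose (12 scaling-stable), of 7 B and plasma cell markers 5 (3 stable), and of 4 tested neutrophil and mast cell markers 2 (2 stable); no marker of the 3 lists fell. Thy1, counted in the T and NK cell list, rose by 1.68 ± 0.24, the T cell adaptor Lat by 1.51 ± 0.28 and the stem and mast cell receptor Kit by 1.46 ± 0.20 (limma adjusted p = 4.8e-05, 4.7e-04 and 2.8e-05). Of 41 Fc receptors and C-type lectins 27 rose and 5 fell (20 and 1 scaling-stable): Clec4n, the receptor Dectin-2 for fungal sugars, had 0 to 0.276 scaled reads in Control and 3.93 to 12.8 in CKD, whereas Clec2h fell from 147 ± 27.2 to 62.8 ± 21.2 (-1.26 ± 0.20, limma adjusted p = 1.1e-04).

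Signals between these cells rose as well. Of 39 tested chemokines and receptors 30 rose and 4 fell (28 and 2 scaling-stable, median 1.23). Ccl17, which draws T cells, stood at 0.102, 0.092, 0.170 and 0.274 scaled reads in Control and at 4.48, 3.64, 4.70 and 6.30 in CKD (2.30 ± 0.23, limma adjusted p = 1.4e-06). The ligands Ccl28 and Ccl25, made by mucosal epithelia, went down: Ccl28 stood at 37.4, 31.4, 26.2 and 51.4 in Control and at 9.79, 8.74, 6.27 and 7.87 in CKD (-2.01 ± 0.19, limma adjusted p = 9.4e-07), and Ccl25 fell by 1.17 ± 0.24 (8.9e-04). Of 63 interleukin and TNF family genes 34 rose and 7 fell (27 and 5 scaling-stable, median 0.64). Tnfsf13b, the B cell survival factor BAFF, rose from 1.42 ± 1.13 to 9.97 ± 1.64 scaled reads and the interleukin 18 receptor Il18r1 from 0.863 ± 0.657 to 7.35 ± 1.58, while the interleukin 5 receptor Il5ra fell from 8.39 ± 3.17 to 3.30 ± 0.354 (limma adjusted p = 6.2e-06, 1.1e-05 and 0.00389).

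Most complement genes were higher. Of 29 tested components and regulators 21 rose and 5 fell (19 and 3 scaling-stable, median 1.56). C3, on which all arms of the cascade meet, stood at 3.27, 2.86, 2.89 and 9.50 scaled reads in Control and at 43.8, 43.1, 40.4 and 49.0 in CKD, and rose by 3.14 ± 0.25 (limma adjusted p = 1.6e-07). C4b rose by 2.69 ± 0.28 and the receptor C3ar1 by 2.47 ± 0.18 (limma adjusted p = 2.4e-06 and 4.9e-08). C8a and C8g, chains of a late component that forms the membrane pore, fell by 1.28 ± 0.17 and 0.99 ± 0.14 (limma adjusted p = 2.9e-05 and 5.6e-05).

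Antigen presentation genes were higher in both classes. Of 13 tested class II genes 10 rose and none fell (8 scaling-stable), the invariant chain Cd74 from 77.0 ± 14.5 to 323 ± 34.6 scaled reads and H2-Eb1 from 107 ± 19.6 to 346 ± 44.6. Of 20 class I and immunoproteasome genes 9 rose and 2 fell (7 and 1 stable): H2-K1 rose by 1.15 ± 0.13 and the peptide pump Tap1 by 1.19 ± 0.17, but the nonclassical gene H2-T23 fell from 4.35 ± 2.94 to 0.984 ± 0.225 scaled reads (-1.29 ± 0.30, limma adjusted p = 0.00264). The genes of the H2 region are close copies of each other, and how reads that fit several of them were counted is not given in the sources used here. Of 59 interferon-stimulated genes 34 rose and 4 fell (28 and 2 scaling-stable, median 0.59). Ifi205 stood at 2.35, 1.93, 2.13 and 2.28 scaled reads in Control and at 10.1, 8.63, 12.1 and 6.36 in CKD, and Oas1g, an RNA-sensing synthetase, rose from 1.03 ± 0.939 to 4.47 ± 1.22 (limma adjusted p = 1.3e-05 and 7.2e-04). The exonuclease Isg20 fell by 0.82 ± 0.21 (limma adjusted p = 0.00552). Both Ifi205 and Oas1g have near copies in the genome, and their reads may be shared.

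Of 38 Toll-like receptor, NF-kB and inflammasome genes 26 rose and 5 fell (16 and 3 scaling-stable, median 0.78). The inflammatory caspase Casp12 stood at 2.14 to 3.04 scaled reads in Control and 17.1 to 20.6 in CKD, and the endotoxin coreceptor Cd14 at 3.15 to 9.30 and 14.8 to 21.96 (limma adjusted p = 3.3e-08 and 6.0e-05). Nfkbia, the inhibitor that NF-kB itself induces, rose by 1.27 ± 0.18 and the NF-kB subunit Relb by 1.57 ± 0.25 (limma adjusted p = 4.4e-05 and 1.2e-04). Tlr12, a receptor for microbial profilin, stood at 53.8, 58.6, 63.4 and 53.5 in Control and at 19.3, 19.8, 18.3 and 21.3 in CKD, a fall of 1.49 ± 0.12 (limma adjusted p = 1.2e-07), with a spread of a few scaled reads in either group.

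Promoter windows of the tested genes were searched for the sequence words of 6 regulators, to see whether a shared word goes with a shared direction. RefSeq windows on GRCm38.p6, from 250 bases before to 50 bases after each start, were matched by symbol to 10522 of the 13942 tested genes. The words, searched on both strands, were in part GGG, any 2 bases, then TTTCC for NF-kB; GAAA, any 2 bases, then GAAA for the interferon-stimulated response element; and CAAAGTCCA for HNF4. Overlapping matches of a word, as in Oas1g, were joined. They were found in 1.63%, 3.44% and 0.475% of all 32851 windows. The AP-1 word, TGA, any base, then TCA, and the E-box CACGTG were found in 7.81% and 7.15%, and the remaining word, found in 4 windows of tested genes, is not described. Matches of the NF-kB, interferon and HNF4 words are in capitals in these windows, printed 5′ to 3′ on the gene's strand, of which Nfkbia lies at chr12:55492598-55492897 (minus strand), Oas1g at chr5:120887564-120887863 (minus), Ifi205 at chr1:174031706-174032005 (minus), Aadat at chr8:60505874-60506173 (plus) and Slc3a1 at chr17:85028097-85028396 (plus). 
Nfkbia: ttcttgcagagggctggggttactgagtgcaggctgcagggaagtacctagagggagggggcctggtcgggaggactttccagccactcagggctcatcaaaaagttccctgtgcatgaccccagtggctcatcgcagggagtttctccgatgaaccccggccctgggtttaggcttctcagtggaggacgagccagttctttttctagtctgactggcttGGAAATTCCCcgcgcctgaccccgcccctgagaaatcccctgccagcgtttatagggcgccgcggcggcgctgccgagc
Oas1g: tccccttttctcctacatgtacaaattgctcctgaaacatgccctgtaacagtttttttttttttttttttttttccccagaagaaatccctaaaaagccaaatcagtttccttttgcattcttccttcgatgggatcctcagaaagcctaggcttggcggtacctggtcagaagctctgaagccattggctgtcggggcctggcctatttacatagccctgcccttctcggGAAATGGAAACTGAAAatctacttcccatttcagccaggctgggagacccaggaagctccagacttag
Ifi205: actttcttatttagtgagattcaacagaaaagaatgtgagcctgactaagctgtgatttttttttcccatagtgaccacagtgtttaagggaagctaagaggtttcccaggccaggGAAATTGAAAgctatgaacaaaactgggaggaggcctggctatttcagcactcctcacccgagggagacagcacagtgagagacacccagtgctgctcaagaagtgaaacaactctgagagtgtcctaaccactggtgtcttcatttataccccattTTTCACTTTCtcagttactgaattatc
Aadat: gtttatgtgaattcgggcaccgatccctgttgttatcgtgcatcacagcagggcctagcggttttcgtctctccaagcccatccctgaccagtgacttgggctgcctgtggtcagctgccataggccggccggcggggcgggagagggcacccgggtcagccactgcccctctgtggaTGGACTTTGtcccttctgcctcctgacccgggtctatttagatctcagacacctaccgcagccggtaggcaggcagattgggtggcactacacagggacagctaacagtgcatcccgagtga
Slc3a1: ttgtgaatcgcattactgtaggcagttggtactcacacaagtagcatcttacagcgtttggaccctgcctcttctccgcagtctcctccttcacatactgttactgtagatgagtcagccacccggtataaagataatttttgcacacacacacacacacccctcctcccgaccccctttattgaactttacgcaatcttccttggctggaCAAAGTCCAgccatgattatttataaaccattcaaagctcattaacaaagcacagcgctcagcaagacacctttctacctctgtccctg

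The interferon word was in the window of 25 of the 43 interferon-stimulated genes that have one, 58.1%, against 3.80% of all tested genes with a window, but within the list it did not part the genes that rose from those that did not. Of the 25 with the word 14 rose (median change 0.52), and of the 18 without it 10 rose and 2 fell (median 0.67). The NF-kB word was in 6 of 27 windows of the Toll-like receptor and NF-kB list, and all 6 of these genes rose, against 11 of the other 21. Over all tested genes, 61 of the 211 with that word rose and 45 fell. The HNF4 word was in 60 tested genes, of which 22 fell and 8 rose, while 2233 of the 10462 without it fell and 2322 rose. Among the 22 were the amino acid enzyme Aadat and the cystine transporter subunit Slc3a1, printed above, and among the 8 was Gpnmb. The AP-1 word was in 8.07% of the windows of genes called higher and 5.50% of those called lower, against 6.36% of all tested windows, and the E-box in 9.53% and 11.8%, against 11.4%. A match is a description of these letters, not a binding site, and no test was made of these counts.

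Genes of the proximal tubule were lower along its length. Of 29 tested transport genes of its early part 20 fell and 1 rose (13 and 1 scaling-stable, median -0.58), and of 25 genes of its straight part 21 fell and 1 rose (13 and 0 stable, median -0.70). Slc34a3, a phosphate carrier of the brush border, stood at 37.9, 41.1, 29.5 and 32.1 scaled reads in Control and at 5.96, 7.01, 10.7 and 16.7 in CKD, where CKD 4 had nearly 3 times the level of CKD 1, and fell by 1.79 ± 0.23 (limma adjusted p = 1.7e-05). The more abundant phosphate carrier Slc34a1 was 3083 ± 226 in Control and 2516 ± 114 in CKD and did not pass (-0.29 ± 0.12, limma adjusted p = 0.0696). The glucose carrier Slc5a2, SGLT2, fell from 360.0 ± 22.9 to 169 ± 41.4 scaled reads and the neutral amino acid carrier Slc6a19 from 27.3 ± 1.30 to 11.1 ± 3.76 (limma adjusted p = 1.1e-05 and 8.0e-05). Slc36a2, an amino acid carrier, was the early gene that passed upward, at 0.519, 3.31, 0.870 and 5.05 scaled reads in CKD 1 to 4. It was highest in the libraries where Adipoq was, and its call ended without CKD 2 and CKD 4 (limma adjusted p = 0.277).

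In the straight part the metalloprotease Mep1b fell from 146 ± 24.0 to 59.3 ± 13.7 scaled reads. Slc22a12, the urate carrier URAT1, stood at 2071, 1167, 914 and 1064 in Control and at 627, 556, 562 and 637 in CKD, and fell by 1.06 ± 0.19 (limma adjusted p = 2.7e-04). Of 46 organic anion and cation carriers 26 fell and 7 rose (19 and 6 scaling-stable, median -0.51), among them the drug and toxin carriers Slc22a6 (OAT1, from 1168 ± 143 to 617 ± 54.2) and Slc22a8 (OAT3, from 579.9 ± 79.2 to 333 ± 17.6). Slco4a1, a thyroid hormone and anion carrier, went against its family, from 3.87 ± 0.795 to 19.4 ± 6.83 scaled reads (2.01 ± 0.23, limma adjusted p = 6.6e-06). Of 29 megalin pathway and brush border genes 17 fell and 3 rose (10 and 3 scaling-stable, median -0.42). The brush border protocadherin Cdhr5 fell by 1.04 ± 0.12 (limma adjusted p = 3.9e-06). Lrp2, megalin, the receptor that takes up filtered protein, did not pass, at 1054, 802, 1972 and 1903 in Control and 1075, 909.8, 1195 and 1150 in CKD (-0.31 ± 0.22, limma adjusted p = 0.281). Without Control 2 it did (-0.55, 0.0223).

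Factors that set the identity of the nephron were called in both directions: of 32 tested 10 rose and 6 fell (7 and 3 scaling-stable), beside 22.6% and 21.0% of all tested genes, so that neither count stood far from the background, and the median of -0.04 turned to 0.18 under equal sums. Hnf4a, the main factor of the mature proximal tubule, stood at 515, 458, 551 and 521 scaled reads in Control and at 214, 217, 262 and 265 in CKD, a fall of 1.09 ± 0.11 (limma adjusted p = 1.1e-06). The bile acid receptor Nr1h4 fell by 0.89 ± 0.12 (limma adjusted p = 2.7e-05). Foxi1, the factor of intercalated cells, rose from 9.34 ± 3.78 to 19.97 ± 0.937 and the cilium factor Foxj1 from 0.0995 ± 0.145 to 2.61 ± 0.831 scaled reads (limma adjusted p = 9.6e-04 and 6.6e-05).

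Genes of the segments beyond the proximal tubule were called higher more often than lower, beside 22.6% and 21.0% of all tested genes. The falls of the thick limb and distal tubule list were near that 21.0%. Of 30 thick ascending limb and distal tubule genes 11 rose and 6 fell (8 and 2 scaling-stable, median 0.35), and of 35 collecting duct genes 13 rose and 4 fell (9 and 1 stable, median 0.21). The thiazide-sensitive carrier Slc12a3 rose from 156 ± 39.95 to 239 ± 30.7 scaled reads, and the tight junction gene Cldn16, which admits magnesium, from 12.6 ± 2.58 to 22.8 ± 1.67 (limma adjusted p = 0.00241 and 6.9e-04). Pvalb, parvalbumin of the early distal tubule, fell from 64.0 ± 11.6 to 33.04 ± 3.88, and Scnn1g, a subunit of the sodium channel ENaC, from 14.04 ± 4.62 to 6.03 ± 1.71 (limma adjusted p = 5.6e-05 and 0.00252). The water channel Aqp2 stood at 118, 141, 146 and 127 in Control and at 139, 358, 198 and 399.6 in CKD, highest in CKD 2 and CKD 4, and its call (0.91 ± 0.24, limma adjusted p = 0.00545) ended without them (0.32, 0.146). The number of collecting duct genes that rose fell there from 13 to 6 of 35. That share was near that of all tested genes in the same fit, 2066 of 13942. Of 35 claudins and junction genes 19 rose and 5 fell (17 and 2 scaling-stable, median 0.49), led by Cdh11, a cadherin of fibroblasts, from 10.9 ± 2.70 to 82.8 ± 5.85 scaled reads, and by Cldn4, from 4.97 ± 0.782 to 26.9 ± 11.8, while the epithelial junction protein F11r fell by 0.75 ± 0.11 (limma adjusted p = 1.2e-09, 5.4e-06 and 4.6e-05).

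In the glomerulus 14 of 21 tested podocyte and related markers rose and 2 fell (10 and 1 scaling-stable, median 0.60). Pla2r1, a phospholipase receptor counted in this list, rose from 7.08 ± 2.03 to 17.01 ± 1.37 scaled reads (limma adjusted p = 9.8e-05). Of 25 endothelial genes 10 rose and 1 fell, beside 22.6% and 21.0% of all tested genes. As the scaling-stable count 4 rose and 1 fell, the rises near the 15.4% of all tested genes called higher under every scaling. Without CKD 2 and CKD 4, 3 rose. Pecam1, the endothelial adhesion molecule, stood at 35.7, 57.6, 54.2 and 68.1 in CKD against 33.4 to 42.5 in Control, and its call (limma adjusted p = 0.0170) ended without CKD 2 (0.0540), without CKD 4 (0.0696) and without both (0.305).

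Hormone and mineral genes were called in both directions. Of 32 renin-angiotensin, vasoactive and erythropoietic genes 15 rose and 4 fell (11 and 3 scaling-stable), and 8 rose without CKD 2 and CKD 4. Renin, Ren1, stood at 44.7, 46.0, 44.8 and 47.4 scaled reads in Control and at 25.2, 25.3, 35.0 and 23.6 in CKD (-0.74 ± 0.13, limma adjusted p = 2.9e-04). The vasoconstrictor Edn1 rose by 1.74 ± 0.21 and its receptor Ednra by 1.14 ± 0.21 (limma adjusted p = 8.8e-06 and 3.6e-04). For adrenomedullin, a vasodilator, ligand and receptor parted: Adm fell by 1.04 ± 0.17 and Calcrl rose by 1.32 ± 0.14 (limma adjusted p = 1.2e-04 and 2.6e-06). The prostaglandin receptor Ptger4 rose from 3.98 ± 1.38 to 22.5 ± 2.84 scaled reads. Of 25 vitamin D, phosphate and calcium genes 6 rose and 6 fell (6 and 3 scaling-stable), both near the 22.6% and 21.0% of all tested genes, with a median of -0.21 that was 0.01 under equal sums. The parathyroid hormone receptor Pth1r stood at 832, 741, 819 and 704 in Control and at 474, 384, 433 and 421 in CKD, a fall of 0.85 ± 0.10 (limma adjusted p = 1.1e-05). Vitamin D hydroxylases did not pass: Cyp24a1 was 68.5 ± 23.6 and 58.0 ± 8.30 and Cyp27b1 2.21 ± 1.21 and 1.53 ± 0.499 scaled reads in Control and CKD (limma adjusted p = 0.403 and 0.454).

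**Figure D4:**
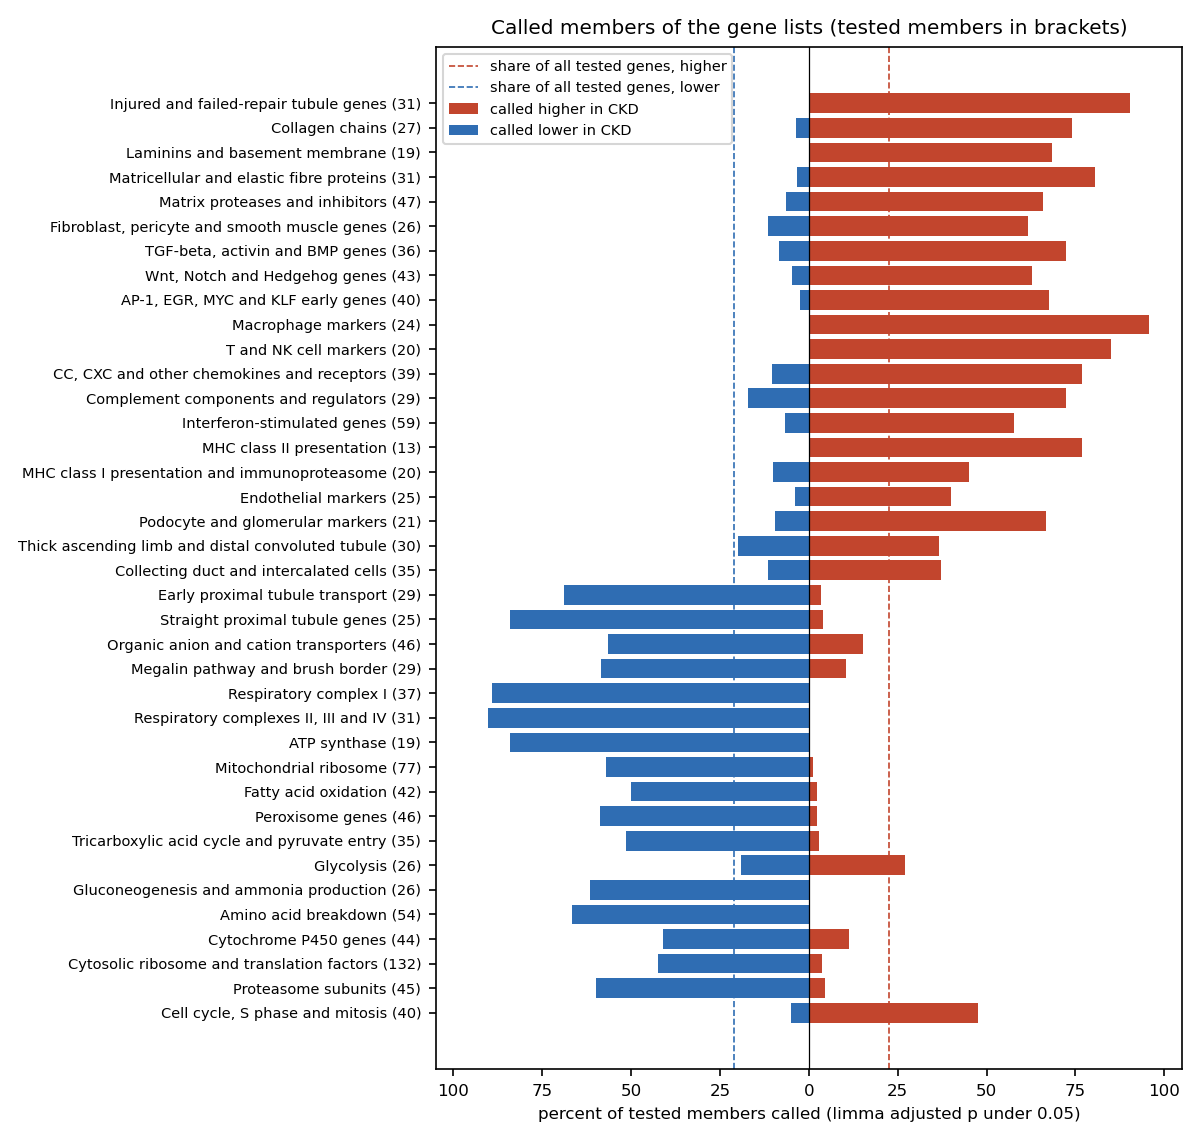
Percent of the tested members of 38 gene lists that were called higher (red, to the right) or lower (blue, to the left) in CKD, with the shares of all tested genes, 22.6% and 21.0%, as dashed lines. Injury, matrix and leukocyte lists lie to the right, and proximal tubule, mitochondrial and amino acid lists to the left.

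Mitochondrial genes fell together, while 21.0% of all tested genes were called lower. The respiratory chain is built of large complexes that pass electrons to oxygen and drive the ATP synthase. Of 37 tested genes of complex I 33 fell and none rose (21 scaling-stable, median -0.60), of 31 genes of complexes II, III and IV 28 fell (14 stable, -0.56), and of 19 ATP synthase genes 16 fell (9 stable, -0.54), with none higher. The complex I subunit Ndufa1 stood at 685, 612, 489 and 594 scaled reads in Control and at 244, 232, 273 and 309 in CKD, a fall of 1.17 ± 0.12 (limma adjusted p = 2.1e-06). Cox7c of complex IV stood at 1022, 964, 664 and 858 and at 267, 260.4, 380.4 and 435, a fall of 1.40 ± 0.17 (limma adjusted p = 7.6e-06). Within CKD both were lower in CKD 1 and CKD 2 than in CKD 3 and CKD 4, as were Cox7b (291 and 300.1 against 411 and 425) and Atp5j of the synthase (121 and 135 against 167 and 212). Cox6a2, the heart and muscle form of a complex IV subunit, stood at 8.31 to 10.1 scaled reads in Control and at 0.194, 1.177, 4.35 and 4.72 in CKD 1 to 4 (-1.76 ± 0.38, limma adjusted p = 0.00139).

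Genes that build and serve the organelle were also called lower more often than higher, beside 21.0% and 22.6% of all tested genes. Of 77 mitochondrial ribosome genes 44 fell and 1 rose (33 and 1 scaling-stable, median -0.41), of 47 import, dynamics and DNA genes 22 fell and 2 rose (15 and 2 stable, -0.28), and of 42 carriers 21 fell and 3 rose (9 and 3 stable, -0.34). The difference between these lists and the chain was not tested. By mean level, 37.7% of tested genes in decile 9 and 53.5% in decile 10, the highest, were called lower. Neither these lists nor those of the chain were compared with genes of like level. Mrpl27 of the large mitochondrial subunit was even among the CKD libraries, at 60.9, 65.4, 62.6 and 62.3 scaled reads against 122 to 162 in Control (-1.19 ± 0.11, limma adjusted p = 5.5e-07). Tfam, which packs and transcribes mitochondrial DNA, fell by 0.68 ± 0.15 (limma adjusted p = 0.00150). Of its regulators, Ppargc1a was 133 ± 27.0 and 118 ± 3.17 scaled reads (limma adjusted p = 0.328), and Nrf1 rose by 0.61 ± 0.18 (0.0111), a call lost without CKD 2 and CKD 4 (0.106). The carriers split by form: Slc25a4, which exchanges ATP for ADP, fell from 660.1 ± 72.8 to 236 ± 32.2, while Slc25a24, a calcium-regulated ATP-magnesium carrier, rose from 7.72 ± 1.52 to 30.6 ± 2.81 (limma adjusted p = 1.2e-07 and 2.9e-07).

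Many genes of the fuel pathways that feed the chain were lower. In the highest decile of tested genes by mean level 53.5% were called lower whatever their list. The lists here were not compared with genes of like level. Among the 42 tested members of fatty acid oxidation 21 fell and 1 rose (11 and 1 scaling-stable, median -0.37, and -0.04 under quantile normalization), of 46 peroxisome genes 27 fell and 1 rose (17 and 1 stable, -0.45), and of 35 tricarboxylic acid cycle and pyruvate genes 18 fell and 1 rose (10 and 0 stable, -0.33). The peroxisomal oxidase Acox3 fell by 1.35 ± 0.12 and Amacr, which prepares branched fatty acids, by 1.30 ± 0.11 (limma adjusted p = 6.4e-07 and 3.6e-07). Cpt1a, the entry step of long-chain fatty acids, did not pass, at 221 ± 16.3 and 190.2 ± 11.9 scaled reads (limma adjusted p = 0.0804). Cytosolic malate dehydrogenase Mdh1 stood at 1786, 1506, 1226 and 1464 in Control and at 648, 578, 734 and 785 in CKD (-1.12 ± 0.13, limma adjusted p = 7.5e-06). Amino acid breakdown, another fuel of the proximal tubule, had 36 of 54 tested genes lower and none higher (23 scaling-stable, median -0.51), among them the tyrosine enzyme Hpd (-1.23 ± 0.21) and the tryptophan enzyme Haao (-1.201 ± 0.13; limma adjusted p = 2.0e-04 and 3.2e-06). Acat1, mitochondrial thiolase of ketone and isoleucine metabolism, stood at 1835, 1421, 1261 and 1430 in Control and at 577, 617, 653 and 690.2 in CKD (-1.22 ± 0.12, limma adjusted p = 1.7e-06).

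Genes of glucose synthesis were lower. Of 26 gluconeogenesis and ammonia genes 16 fell and none rose (11 scaling-stable, median -0.50), including fructose bisphosphatase Fbp2 (from 24.1 ± 0.986 to 10.6 ± 0.705 scaled reads), the glucose 6-phosphate carrier Slc37a4 (-1.004 ± 0.11) and Pck1 (-0.74 ± 0.12; limma adjusted p = 1.1e-05, 4.8e-06 and 1.0e-04). Pck1 is also made by fat cells. Of 26 glycolysis genes 7 rose and 5 fell (7 and 1 scaling-stable), shares near those of all genes, and the median of 0.07 was -0.03 under median centring. The platelet-type phosphofructokinase Pfkp rose from 37.2 ± 9.38 to 73.1 ± 5.92 scaled reads and the lactate exporter Slc16a3 from 0.532 ± 0.452 to 2.85 ± 0.920, while Tpi1 fell by 0.59 ± 0.09 (limma adjusted p = 1.2e-04, 7.3e-04 and 1.2e-04). Pfkfb3, which sets the pace of glycolysis, was 12.9, 25.4, 16.6 and 31.5 in CKD 1 to 4 against 8.40 to 10.6 in Control, and lost its call without CKD 2 and CKD 4 (limma adjusted p = 0.00147 and 0.0633).

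In smaller branches of metabolism falls outnumbered rises, except among genes that make sterols and fatty acids. Of all tested genes 21.0% were called lower and 22.6% higher. Of 33 NAD, polyamine, creatine and inositol genes 17 fell and 4 rose (8 and 3 scaling-stable, median -0.47). Odc1, the first enzyme of polyamine synthesis, stood at 936, 932, 918 and 1134 scaled reads in Control and at 289, 307, 343 and 391 in CKD (-1.56 ± 0.12, limma adjusted p = 7.1e-08), while Nnmt, which uses up nicotinamide, rose from 0.540 ± 0.302 to 3.34 ± 0.196 (1.51 ± 0.23, 7.8e-05). Of 44 cytochrome P450 genes 18 fell and 5 rose (12 and 3 stable, median -0.39), and of 43 conjugation enzymes 24 fell and 4 rose (13 and 3 stable, -0.39, with 1 rise left without CKD 2 and CKD 4). Cyp2e1 fell from 958 ± 46.9 to 528 ± 46.1 scaled reads and the glycosyltransferase Ugt3a1 from 164 ± 37.6 to 66.1 ± 9.61 (limma adjusted p = 8.3e-06 and 5.0e-06). Among 42 genes that make sterols and fatty acids 11 rose and 7 fell (10 and 3 stable, median 0.21), shares near those of all genes. Fasn, fatty acid synthase, was 84.3, 254, 72.7 and 349.7 in CKD 1 to 4 against 36.7 to 53.6 in Control, highest where Adipoq was, whereas Scd2 was even at 69.7 to 92.8 against 20.4 to 50.9 (limma adjusted p = 9.8e-04 and 9.1e-05).

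Antioxidant genes did not move as a block: of 42 tested 9 rose and 18 fell (6 and 8 scaling-stable), the rises near the 22.6% of all genes, and the median of -0.22 was 0.01 under equal sums. The peroxiredoxin Prdx5 stood at 1371, 1498, 1038 and 1110 scaled reads in Control and at 392, 403, 531 and 578 in CKD (-1.40 ± 0.15, limma adjusted p = 2.5e-06). Of the oxidases that make reactive oxygen, the phagocyte subunits Cybb and Ncf1 rose by 1.82 ± 0.14 and 2.08 ± 0.19, and Nox4, the oxidase of the tubule, fell by 0.85 ± 0.13 (limma adjusted p = 1.3e-07, 5.3e-07 and 6.8e-05). The NRF2 target Nqo1 was 36.8 ± 4.86 and 35.9 ± 3.50 scaled reads (limma adjusted p = 0.869).

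Transcripts of cell cycle genes and of cell cycle inhibitors and p53 targets were called higher more often than lower. Of all tested genes 22.6% were called higher and 21.0% lower. Of 40 cell cycle genes 19 rose and 2 fell (10 and 2 scaling-stable, median 0.55), and of 33 inhibitors and p53 targets 17 rose and 4 fell (11 and 0 stable, 0.39). Without CKD 2 and CKD 4, 12 cell cycle genes rose and 2 fell, and 9 inhibitors and p53 targets rose and 1 fell. Topoisomerase Top2a stood at 2.25 to 5.53 scaled reads in Control and at 14.03 to 17.5 in CKD (1.72 ± 0.21, limma adjusted p = 1.1e-05), but Mki67 did not pass, at 2.30 to 6.80 and 5.51 to 9.41 (limma adjusted p = 0.0762), and Ccna2 fell by 0.86 ± 0.13 (7.9e-05). Cdkn2a, the locus of p16 and p19, had 1 read in all Control libraries, 0.0913 scaled reads in Control 4, and stood at 2.08, 2.92, 2.26 and 1.84 in CKD, a fitted change of 1.67 ± 0.24 (limma adjusted p = 3.9e-05). Its neighbour Cdkn2b rose from 1.57 ± 0.799 to 6.42 ± 1.21, and Cdkn1a, p21, from 15.1 ± 2.50 to 42.3 ± 4.77 scaled reads (limma adjusted p = 1.1e-04 and 1.2e-06).

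Within the machinery of protein turnover, falls were most frequent among proteasome subunits. Of 132 cytosolic ribosome and translation genes 56 fell and 5 rose, but 15 and 2 were scaling-stable, and the median of -0.27 was -0.04 under equal sums. The 15 stable falls were near the 10% of all tested genes called lower under every scaling. In the highest decile of tested genes by mean level 53.5% were called lower. Neither this list nor that of the proteasome was compared with genes of like level. Of 45 proteasome subunits 27 fell and 2 rose (12 and 2 scaling-stable, median -0.41). The catalytic subunit Psmb7 stood at 294, 297, 247 and 272 scaled reads in Control and at 107, 94.7, 120.1 and 135 in CKD (-1.28 ± 0.12, limma adjusted p = 5.1e-07). Psmb8, a catalytic subunit of the immunoproteasome, rose from 20.5 ± 3.05 to 32.6 ± 2.13 and the activator Psme1 from 51.7 ± 4.13 to 69.4 ± 4.08 (limma adjusted p = 9.6e-04 and 0.00444). Of 60 lysosome genes 12 rose and 18 fell (9 and 1 scaling-stable), the rises near the 22.6% of all genes, and the median of -0.16 was 0.06 under equal sums; the rises were led by the cathepsins Ctss, which rose by 2.28 ± 0.12, and Ctsk, which rose by 1.85 ± 0.17 (limma adjusted p = 1.2e-09 and 7.3e-07). Unfolded protein response genes had 3 of 32 higher and 7 lower (2 and 2 scaling-stable), the falls near the 21.0% of all genes, and the median of -0.06 was 0.15 under equal sums.

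Within several families, close relatives moved in opposite directions, each by its own test. Of the phosphate carriers, Slc34a2 rose from 1.199 ± 0.439 to 8.61 ± 3.36 scaled reads (2.08 ± 0.26) while Slc34a3 fell (-1.79 ± 0.23). Of the fatty acid omega-hydroxylases, Cyp4a14 rose by 3.54 ± 0.48, at 76.4, 291, 38.9 and 47.3 in CKD, and Cyp4a12a fell by 1.91 ± 0.24 (limma adjusted p = 2.5e-05 and 1.6e-05). Of the amino acid exchangers Slc7a13 fell by 1.34 ± 0.13 and Slc7a12 rose by 0.85 ± 0.24 (limma adjusted p = 1.1e-06 and 0.0103), which quantile normalization ended (0.114). The beta 4 integrin Itgb4 rose by 1.72 ± 0.22 and Itgb6, which activates TGF-beta, fell by 0.72 ± 0.16 (limma adjusted p = 1.3e-05 and 0.00183). Among annexins Anxa2 rose from 56.9 ± 9.73 to 158 ± 13.5 and Anxa13 fell from 15.9 ± 2.82 to 5.50 ± 1.71 scaled reads (limma adjusted p = 2.0e-07 and 7.2e-05).

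Some changes of 2-fold or more were nearly the same in all 4 CKD libraries. Prss23, a secreted serine protease, stood at 63.3, 62.7, 61.7 and 64.4 scaled reads in CKD against 19.4 to 28.04 in Control (1.34 ± 0.13, limma adjusted p = 7.2e-07). Vwa1, a matrix protein of basement membranes, was lower, at 35.8, 34.6, 34.2 and 35.5 against 76.7 to 91.0 (-1.23 ± 0.10, limma adjusted p = 2.6e-07). The membrane-bound chemokine Cx3cl1 stood at 85.5, 88.5, 91.5 and 92.8 against 36.3 to 47.3, and Coa6, an assembly factor of complex IV, at 29.1, 27.6, 29.7 and 30.0 against 49.5 to 90.6 (limma adjusted p = 1.0e-06 and 8.4e-06). For the factor Foxc1 the Control libraries were the uneven ones, at 14.3, 12.6, 30.4 and 19.4, against 39.9 to 42.1 in CKD (1.14 ± 0.20, limma adjusted p = 2.5e-04).

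**Figure D5:**
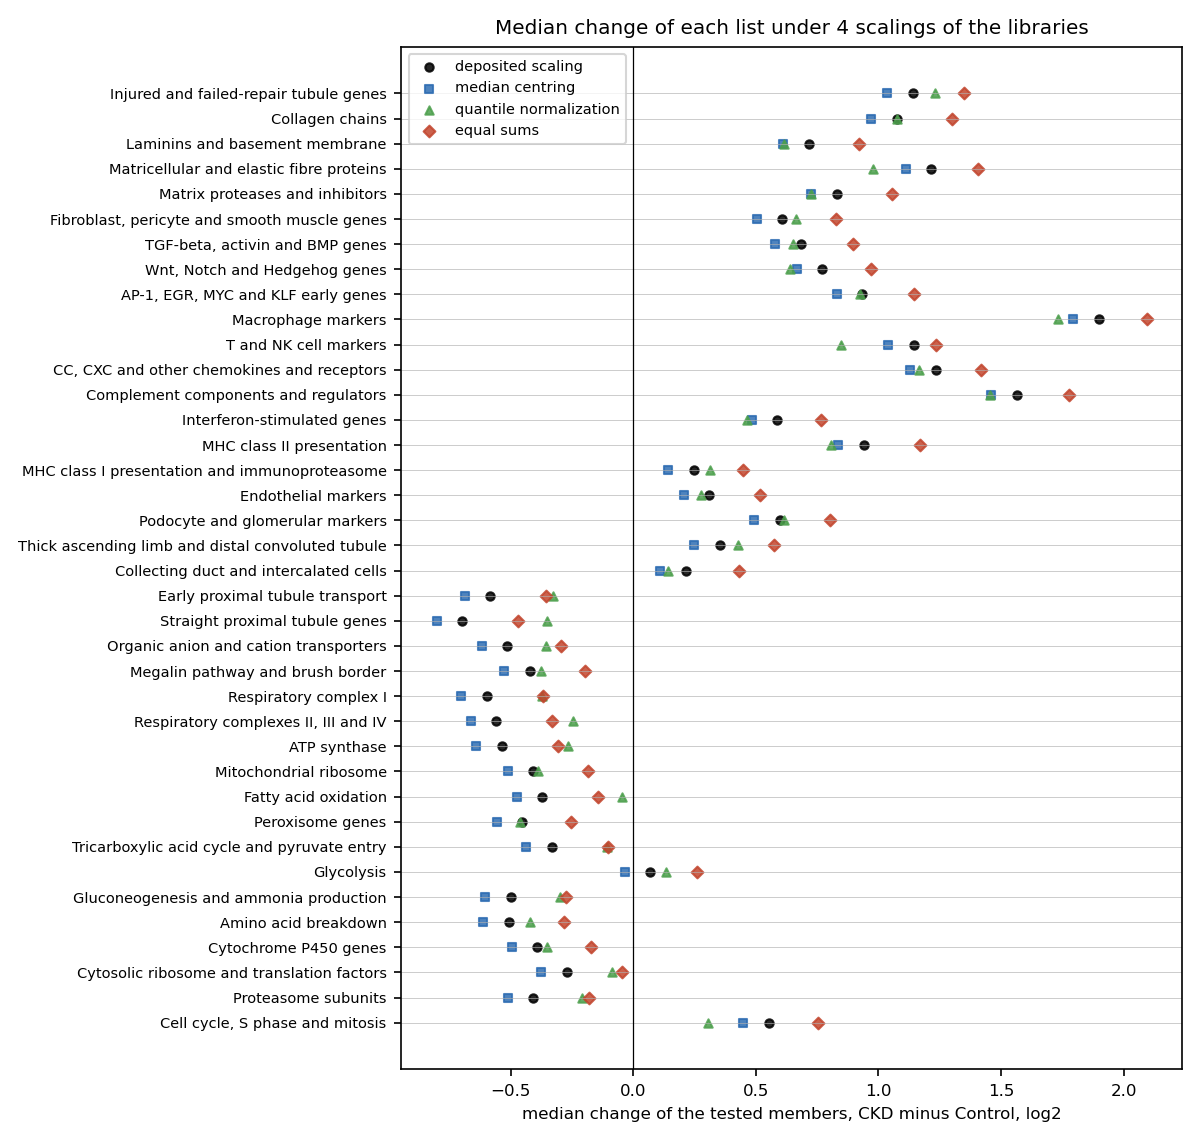
Median change of the tested members of 38 gene lists, CKD minus Control on the log2 scale, under the deposited scaling and 3 other scalings of the libraries. Of these lists the median of glycolysis is the one that changes sign, 0.07 as deposited and -0.03 under median centring, and the medians that come nearest to 0 from below are those of translation genes under equal sums and of fatty acid oxidation under quantile normalization, both -0.04.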

How the data were processed

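The deposited log2 values are log2(scaled reads + 1), judged from the values themselves, and the authors made them by scaling each library's reads with a factor of its own; the method is not given in the sources used here. Bowtie2, bedtools and mm10 are named in the submitters' processing notes, without roles or versions. RNA was extracted with Trizol before the QuantSeq libraries were made, per the labels' protocols.

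Low values undid to whole reads (98.1% to 100% within 0.1 of a whole number), which gave each library's depth. Of 23282 rows and 23238 symbols, a repeated symbol kept its row with the highest mean. The upper 60% of genes by mean over the 8 libraries, 13942 genes, were tested with limma 3.58.1 in R 4.3.3 (lmFit, eBayes with trend, two-sided, Benjamini-Hochberg, threshold 0.05). The fit was tested on simulated data. Library measures were compared by exact permutation tests.

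Members and lists were chosen with earlier results of these data known. Named genes were, in each list, up to 4 with the largest change among called genes without overlap and up to 2 called against the majority; over all genes, the 12 largest gains and 12 largest losses in scaled reads, genes below 3 reads in 1 group and at 5 scaled reads or more throughout the other, and the 10 called genes with the smallest relative spread in CKD at 2-fold or more. Other genes were chosen after their values were seen: Aqp2, Slc12a1, Lrp2, Clu, Spp1, Tnfrsf12a, Col4a1, Tgfb2, Tgfb3, Fos, Nfkbia, Slc3a1, Slc34a1, Slc22a6, Slc22a8, Slc12a3, Pecam1, Cyp24a1, Cyp27b1, Tfam, Ppargc1a, Cpt1a, Cyp2e1, Nox4, Nqo1, Mki67, Egf and Cubn. Alternatives were other scalings, pseudocounts of 0.25 and 5, other filters, limma voom on the recovered reads, library weights, 1 prior spread, a fit of all 3 groups, an adipose covariate, a replicate block, each library left out and, chosen after seeing the data, CKD 2 and CKD 4 left out. Whether same-numbered libraries deviate together was checked. Some genes are not reported here.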

Additional observations from a re-analysis of the deposited data

Results flagged for a closer look

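Among 392 groups of 4 libraries of the genes named, 27 (6.89%) held a library whose gap to the nearest other, divided by the group's range, passed the critical value of 0.829; chance flags about 1 in 20 groups. Values here are log2(scaled reads + 1). In the CKD group, CKD 1 stood apart for Bmp7 (4.06), Col4a3 (4.97), Igf1 (5.42) and Nnmt (2.02), and CKD 2 for Actb (11.90), Apoe (10.39) and Kap (14.43). CKD 3 stood apart for Adm (3.53) and Il18r1 (3.42), and CKD 4 for Ctsk (3.69). In the Control group, Control 1 stood apart for Apoe (8.58), Ccna2 (5.49), Fbp2 (4.73), Il5ra (2.23), Slc22a6 (10.43) and Tpi1 (8.52), and Control 2 for C8a (4.802), Ccl25 (2.46), Cdkn1a (4.31), Nrf1 (4.20) and Ucp1 (0.45). Control 3 stood apart for Bmp7 (4.95), and Control 4 for C3 (3.39), Cdh11 (4.00), Cdkn2a (0.13), Odc1 (10.15) and Tnfsf13b (2.04).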

How the results depend on the processing

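Bringing libraries to equal sums gave 4811 genes called higher and 1456 lower, and limma voom on the recovered reads gave 1446 lower, against 3151 and 2927 with the deposited scaling. Testing only the upper 40% of genes gave 1849 higher. Without CKD 2 and CKD 4, a choice made after seeing the data, 4011 genes were called, 2066 higher and 1945 lower; the fit has fewer samples. Leaving out each library in turn gave 5025 to 5988 called, 2615 to 3102 higher and 2410 to 2903 lower. With an adipose covariate 4379 were called, and in the fit of all 3 groups 6312. Same-numbered libraries correlated at -0.03 to 0.05 in their deviations from the group means, and differently numbered ones at -0.095 to 0.0943. This gave no sign that the numbers pair the libraries, but it cannot exclude shared handling, which the labels do not give. A fit with the replicate block called 5858 genes, 3076 higher and 2782 lower. Under quantile normalization the changes of Gpx3 and Kap were 0.00, since these genes hold the same rank in all 8 libraries. Genes near the worth of 3 reads are limited by depth, and the scaling limits any statement on the balance of rises and falls.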

Other observations

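Ion channel and guidance genes, not described above, were called higher in CKD more often than lower. Of all tested genes 22.6% were called higher and 21.0% lower. In the lowest decile of tested genes by mean level 26.7% were called higher and 3.30% lower, whatever their list. The channel and guidance lists were not compared with genes of like level. Of 77 tested potassium, chloride and TRP channel genes and their kin 26 rose and 9 fell (20 and 3 scaling-stable, median 0.30). The calcium-activated chloride channel Ano1 stood at 6.02, 4.51, 6.12 and 6.49 scaled reads in Control and at 35.6, 39.7, 32.8 and 36.5 in CKD, a rise of 2.46 ± 0.15 (limma adjusted p = 1.2e-08). Of 58 semaphorin, ephrin and other guidance genes 34 rose and 5 fell (25 and 0 scaling-stable, median 0.68). The neurotrophin receptor Ntrk2, known as TrkB, stood at 0, 0, 0.425 and 0.457 scaled reads in Control and at 4.48, 7.40, 5.75 and 6.49 in CKD, a rise of 2.53 ± 0.24 (limma adjusted p = 8.5e-07).

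Patterning genes of the embryo were called higher more often than lower, beside 22.6% and 21.0% of all tested genes. They too were not compared with genes of like level. Of 28 tested Hox genes 11 rose and 2 fell (9 and 1 scaling-stable, median 0.34). Hoxd11, needed with Hoxa11 to form the kidney, stood at 4.24 to 4.85 scaled reads in Control and 16.3 to 20.1 in CKD, a rise of 1.78 ± 0.16 (limma adjusted p = 5.3e-07). Hoxa11 rose by 1.39 ± 0.23 and Hoxa7 fell by 0.67 ± 0.11 (limma adjusted p = 1.4e-04 and 1.3e-04). Sox11, a factor of progenitor cells, stood at 0.102, 0.829, 0.851 and 0.457 in Control and at 12.2, 8.86, 12.7 and 7.21 in CKD (2.85 ± 0.24, limma adjusted p = 3.0e-07). Of 40 cilium and cystic kidney genes 4 rose and 9 fell (3 and 3 scaling-stable), the falls near the 21.0% of all tested genes, and Pkd1, mutated in polycystic kidney disease, rose from 17.9 ± 3.24 to 33.2 ± 2.50 scaled reads (limma adjusted p = 1.5e-04).

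The Control libraries were uneven in some abundant genes. Egf, made by the thick ascending limb and distal tubule, stood at 281, 218, 494 and 557 scaled reads in Control 1 to 4 and at 332 to 371 in CKD. Cubn, the partner of megalin, stood at 92.4, 69.8, 133.6 and 137 in Control and at 69.96 to 92.4 in CKD. Both, like Slc12a1 and Lrp2, were lower in Control 1 and 2 than in Control 3 and 4. Neither passed (limma adjusted p = 0.878 and 0.160), and Cubn did without Control 2 (-0.50, 0.00927). Sdhd of complex II was uneven in another way, highest in Control 1 and lowest in Control 2 and 3, at 455.98, 98.7, 92.5 and 247 in Control and at 38.8 to 58.9 in CKD.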
